A study of Homo sapiens with 9 samples.

Results

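SNF5 was called at 20718 regions of the HepG2 genome, and 7507 of them (36.2%, Wilson 95% interval 35.6 to 36.9) lay more than 1000 bp from every peak of ARID1A, ARID1B and ARID2. These 7507 regions, called far SNF5 peaks here, were chosen by the positions of the peak calls alone: the gap between nearest edges had to exceed 1000 bp for all 3 ARID lists. Another 10538 SNF5 peaks (50.9%) shared at least 1 bp with an ARID peak and are called overlapped peaks, and the remaining 2673 (12.9%) did not overlap an ARID peak but lay within 1000 bp of one. The lists came from ChIP-seq of HepG2, an established human hepatocellular carcinoma cell line, grown without any treatment, with antibodies to ARID1A, ARID1B, ARID2 and SNF5 in 2 replicate experiments each and 1 input library. The authors merged the replicates before calling peaks, so each list is a single observation. No region has a replicate value, the depth behind a peak is unknown, and every comparison is between sets of peaks of this one cell line. Neighbouring peaks share a locus and are not independent, so the intervals and p-values cover counting error between sets of peaks only. Differences of antibody, of depth and of the subunit bound cannot be told apart with 1 list per antibody.

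SWI/SNF complexes use the energy of ATP to slide or evict nucleosomes and so change which stretches of DNA transcription factors can reach. SNF5 (BAF47, INI1, SMARCB1) is a core subunit shared by the BAF and PBAF forms of the complex. ARID1A and ARID1B are alternative subunits of BAF, and ARID2 belongs to PBAF. A smaller form without any of these ARID proteins, named for BRD9 and GLTSCR1, is known to lack SNF5 too. In liver cells these complexes work beside factors such as HNF4A, FOXA and C/EBP at the regulatory regions of hepatocyte genes.

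The central 200 bases of 5 far peaks are shown first as examples of high score, not as typical members of the set. The 5 are the highest score of all, the highest in intergenic DNA, the highest at a CpG-rich promoter, and the highest off-promoter sites with an AP-1 and with a FOXA match. They were picked after their values were seen. All are on the plus strand of GRCh37 (hg19), and capitals mark every match to the motif set described further on, on either strand.
SLC26A5 exon: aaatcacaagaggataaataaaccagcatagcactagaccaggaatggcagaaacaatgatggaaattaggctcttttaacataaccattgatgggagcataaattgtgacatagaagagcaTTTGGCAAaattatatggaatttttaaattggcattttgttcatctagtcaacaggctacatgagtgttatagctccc
chromosome 1 intergenic: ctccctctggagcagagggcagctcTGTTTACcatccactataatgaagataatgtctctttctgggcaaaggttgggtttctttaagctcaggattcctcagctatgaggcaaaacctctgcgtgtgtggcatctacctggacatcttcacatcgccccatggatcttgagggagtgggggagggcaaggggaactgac
RPS14 promoter: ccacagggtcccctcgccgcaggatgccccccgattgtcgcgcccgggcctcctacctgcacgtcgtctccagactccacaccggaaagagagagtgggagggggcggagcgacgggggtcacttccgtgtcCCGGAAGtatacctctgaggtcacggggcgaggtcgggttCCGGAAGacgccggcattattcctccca
intron near H3P13: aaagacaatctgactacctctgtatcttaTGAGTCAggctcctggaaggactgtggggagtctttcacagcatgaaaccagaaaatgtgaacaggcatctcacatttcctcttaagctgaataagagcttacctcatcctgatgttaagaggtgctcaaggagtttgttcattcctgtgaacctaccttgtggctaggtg
LINC00607 intron: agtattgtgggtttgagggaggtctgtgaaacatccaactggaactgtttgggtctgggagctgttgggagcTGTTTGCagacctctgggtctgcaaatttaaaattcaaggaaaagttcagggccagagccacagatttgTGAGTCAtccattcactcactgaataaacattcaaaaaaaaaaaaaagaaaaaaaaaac
The SLC26A5 window (chr7:103029131-103029330) carried 1 C/EBP match and was AT-rich, with a GC content of 35.5%. The intergenic window (chr1:213001239-213001438) held 1 FOXA match of the form TGTTTAC. The RPS14 window (chr5:149829210-149829409) had a GC content of 67.0% and held the ETS letters CCGGAAG at 2 places. The window near the H3 pseudogene H3P13 (chr3:179362240-179362439) had 1 AP-1 match, and that of the noncoding RNA gene LINC00607 (chr2:216558301-216558500) had 1 FOXA match of the form TGTTTGC and 1 AP-1 match.

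Far SNF5 peaks were narrow and of low score. Their median width was 390 bp (quartiles 237 and 560, range 119 to 5053), against 836.5 bp for overlapped peaks. The score is a whole number per peak from the authors' peak calling that the sources used here do not define, and it is read only as larger or smaller. Its median was 17 in far peaks (quartiles 15 and 20, range 10 to 69) and 22 in overlapped peaks. A score of 22 or more was held by 20.2% of far peaks (1516) and 51.4% of overlapped peaks, and a width of at least 1000 bp by 6.35% of far peaks (477) and 40.3% of overlapped peaks. Both together were found in 139 far peaks. Peaks within 1000 bp of an ARID peak but not touching it had a median width of 368 bp and a median score of 18, so their values were close to those of the far set. A wide peak has more chance to meet another peak, so these widths are given as a description with no test.

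**Figure D1:**
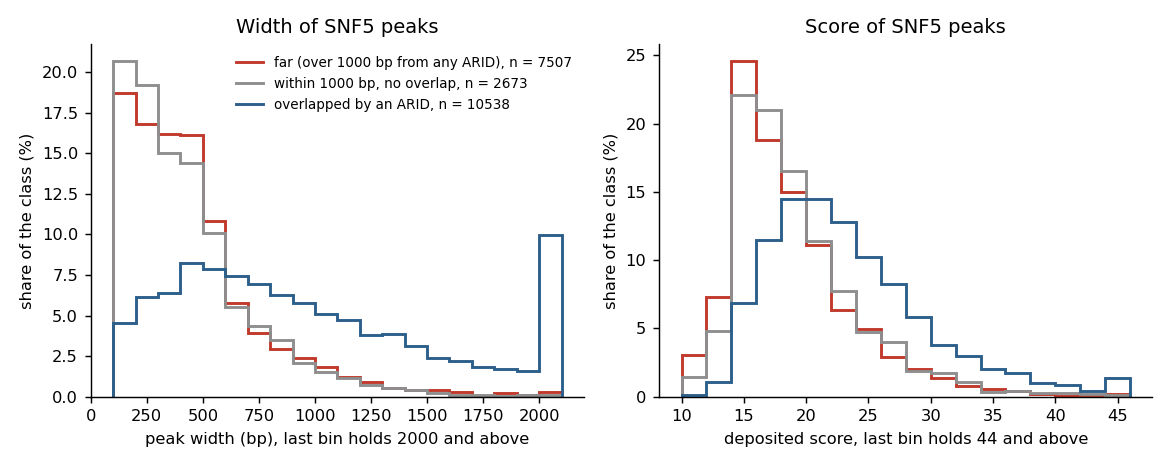
Share of each class of SNF5 peaks (y axis, %) by peak width in bp (left) and deposited score (right). Red lines are the 7507 far peaks, grey lines the 2673 peaks within 1000 bp of an ARID peak and blue lines the 10538 overlapped peaks. The far and grey lines run together at narrow widths and low scores, and the blue line extends to wide peaks, with medians of 390, 368 and 836.5 bp.

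The far peaks of highest score were mostly short. Of the 35 far peaks with a score of 40 or more, 23 (65.7%) were under 200 bp wide, against 18.7% of all far peaks. Of the same 35, 28 (80.0%) lay more than 1000 bp from a transcription start site (TSS). That share was near the one of all far peaks, 5340 of 7507, and was not tested. Among overlapped peaks with a score of 40 or more, 26 of 285 (9.12%) were under 200 bp. Across far peaks width and score were nearly unrelated (Spearman rho 0.053 over 7507 peaks, as a description), and across overlapped peaks rho was 0.24. The highest score, 69, belonged to a 160 bp peak in an exon of SLC26A5, the gene of the motor protein prestin, 40552 bp from the nearest ARID peak. The TSS nearest to that peak was that of PSMC2, an ATPase subunit of the proteasome. A 126 bp peak in an intron of RFX2, a transcription factor of ciliated cells, scored 64, and a 334 bp peak in an intron of ENSG00000288698, with H3P13 nearest, scored 57. Then came TCP10L3 (54), the LINC00607 intron and FEM1B, a substrate receptor of a ubiquitin ligase (52 each), TRIM42 (49), HMGA2, an architectural chromatin protein, and PARN, a poly(A) ribonuclease (48 each), and LINC01588 (46). None of these 10 lay within 1000 bp of a TSS.

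The widest far peaks were a different set, with scores between 14 and 30. The widest covered 5053 bp over a start of TMEM37, had a score of 18, and lay 2333 bp from an ARID1B peak. Peaks of 3552 bp at TRAF3IP2, an adaptor of interleukin 17 signalling, and 2698 bp at TNFAIP3, an inhibitor of NF-kB signalling, also covered a TSS. A 3272 bp peak lay in an intron of SDC1, a heparan sulfate proteoglycan that binds remnant lipoproteins on hepatocytes. Others were inside UTRN (3226 bp), SERTAD2 (2929 bp), FNDC3B (2705 bp) and LINC00570 (2282 bp). The remaining peaks were intergenic. One of 2796 bp lay 13560 bp from the nearest TSS, that of ARHGAP12. Another of 2438 bp lay 13781 bp from that of the processed pseudogene ENSG00000243777. Wide far peaks were more often called promoter: 39.2% of those of at least 1000 bp (34.9 to 43.7, n = 477) had a TSS within 1000 bp, against 28.9% of all far peaks. That distance is taken from the peak edge, so a wide peak has more chance to reach a TSS, and no test was made.

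Far peaks were spread over a wide range of distances from the ARIDs. The median gap to the nearest ARID peak was 12591 bp (quartiles 3566.5 and 39504, up to 4358707 bp). The nearest ARID peak was 1 to 5 kb away for 2343 far peaks (31.2%), 5 to 20 kb for 2197 (29.3%), 20 to 100 kb for 2211 (29.5%) and over 100 kb for 756 (10.1%), of which 37 were over 1 Mb away. The ARID named by the nearest peak was divided almost evenly: ARID1A for 34.2% (33.2 to 35.3), ARID1B for 32.2% (31.1 to 33.3) and ARID2 for 33.6% (32.5 to 34.6). The ARID1B list is shorter, with 8728 peaks against 12852 for ARID1A and 12995 for ARID2. Score changed little with the gap: the median was 17 at 1 to 5 kb, 17 at 5 to 20 kb, 17 at 20 to 100 kb and 18 over 100 kb, and rho over all far peaks was 0.047.

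Distance from the ARIDs went with a larger share of promoters and of CpG-rich DNA within the far set. A peak was called promoter when a TSS of any annotated transcript lay within 1000 bp, and CpG-rich when its central 200 bp had a GC content of at least 50% and an observed to expected CpG ratio of at least 0.6. Promoters were 25.3% (23.5 to 27.1) of far peaks at 1 to 5 kb, 24.9% at 5 to 20 kb, 33.8% at 20 to 100 kb and 37.2% (33.8 to 40.7) over 100 kb. CpG-rich centres were 6.74% (5.8 to 7.83), 9.74%, 17.2% and 23.7% (20.8 to 26.8) in the same order. The intervals of the nearest and farthest bins do not overlap for either share, but the gap is the measure the set was chosen on and the trend was seen before it was described, so no test is given.

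**Figure D2:**
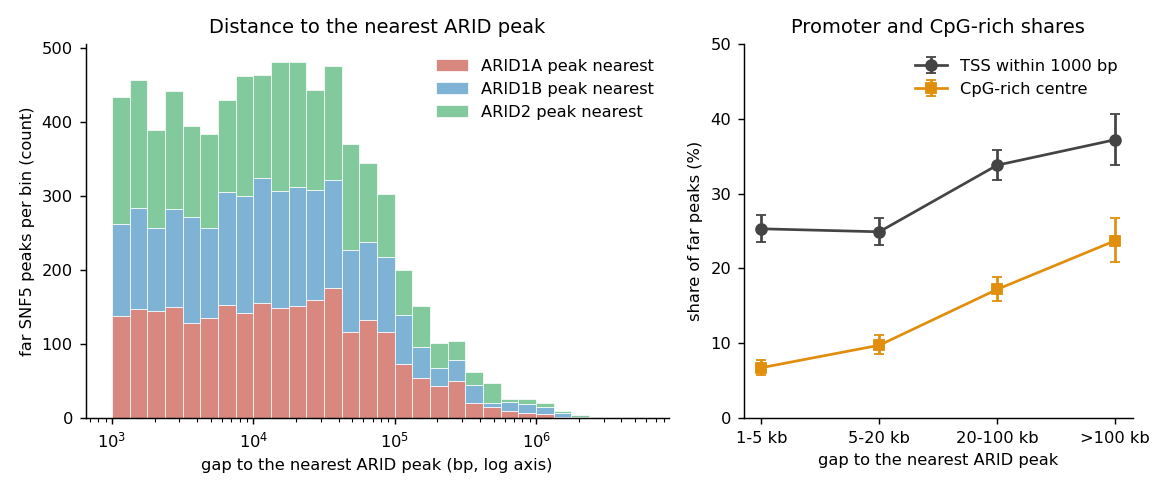
Left, number of far SNF5 peaks (y axis) by gap to the nearest ARID peak in bp (log x axis), stacked by which ARID is nearest. Right, share of far peaks (%) with a TSS within 1000 bp (circles) and with a CpG-rich centre (squares) in 4 distance bins, with Wilson 95% intervals. The 3 ARIDs contribute nearly equal parts, and both shares are highest over 100 kb, at 37.2% and 23.7%.

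The most remote far peaks had scores of 15 or 16. The farthest, 245 bp of intergenic DNA on chromosome 13 (chr13:87160146-87160390), was 4358707 bp from an ARID1B peak. The next were in an intron of TTTY14 on chromosome Y (3057029 bp), in an intron of the gene ENSG00000249174 on chromosome 5, with the pseudogene RPL32P14 nearest (2287182 bp), at a start of the gene ENSG00000285042, inside LINC02211 and LINC02228, on chromosome 5 (2282448 bp) and in intergenic DNA near YIPF6 on chromosome X (2191287 bp). At the other edge, the far peaks closest to the limit had a gap of 1001 bp and lay in an intron of NPAS2 (209 bp wide, score 16), at the promoter of SIX4 (350 bp, score 16) and at that of HGS (481 bp, score 15). Just outside it, with a gap of 1000 bp, were peaks near FARP1 (523 bp, score 16), RNF13 (534 bp, score 20) and NAA25 (194 bp, score 15). The 166 far peaks with a gap of 1001 to 1100 bp had a median width of 349 bp and a median score of 16, and the 151 peaks just outside, at 901 to 1000 bp, had 422 bp and 17, so the limit divides peaks that are much alike in score.

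Far SNF5 peaks lay mostly in introns and between genes, where overlapped peaks lay mostly at promoters. Promoters made up 28.9% of far peaks (2167 of 7507, 27.9 to 29.9) and 69.5% of overlapped peaks (7329 of 10538, 68.7 to 70.4). The odds ratio was 0.178 (95% interval 0.167 to 0.190), the p of the two-sided Fisher exact test had a log10 of -651, and the share was lower in far peaks on 24 of 24 chromosomes. Introns held 41.9% of far peaks and 16.8% of overlapped peaks (odds ratio 3.56, 3.33 to 3.81, adjusted p = 4.46e-302 by the Fisher exact test, higher on 23 of 24 chromosomes). Intergenic DNA held 23.6% and 10.3% (odds ratio 2.69, 2.47 to 2.92, adjusted p = 1.86e-126 by the same exact test, higher on 23 of 24). Exons outside promoters held 5.62% and 3.29%, which was not tested. The classes exclude one another and promoter is assigned first, so a lower promoter share raises the others. Among peaks over 1000 bp from a TSS, 1772 of 5340 far and 1087 of 3209 overlapped peaks were intergenic. Introns held 3146 and 1775 of them. These shares were close between far and overlapped peaks and were not tested. The peaks within 1000 bp of an ARID peak took a middle place, with 53.6% at promoters, 27.5% in introns and 14.7% between genes. Because far peaks are narrower, the shares were also compared within 5 strata of width, where the promoter odds ratio was 0.198 and the intron odds ratio 3.19. The classes were made from the positions of ARID peaks, and 65.5% of all 34575 ARID peaks were in a promoter chromatin state. Peaks chosen to overlap or to avoid them therefore tend to differ in promoter share by the rule itself. The p-values do not set this apart from other differences between the classes.

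**Figure D3:**
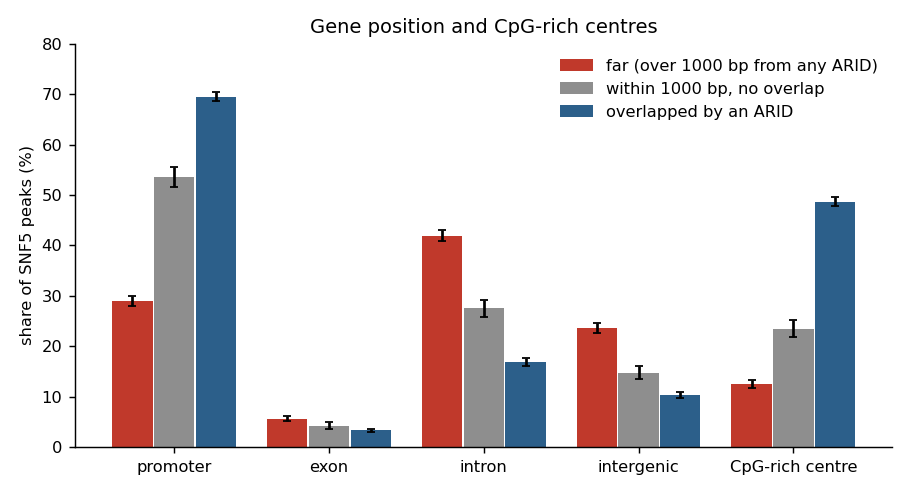
Share of SNF5 peaks (y axis, %) at promoters, in exons, in introns, between genes and with a CpG-rich centre, for far peaks (red), peaks within 1000 bp of an ARID peak (grey) and overlapped peaks (blue), with Wilson 95% intervals. Far peaks are lowest at promoters (28.9% against 53.6% and 69.5%) and highest in introns (41.9% against 27.5% and 16.8%).

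CpG islands, stretches of DNA rich in CG pairs, mark the starts of most housekeeping genes. A CpG-rich centre was found in 12.4% of far peaks (931, 11.7 to 13.2) and 48.7% of overlapped peaks (5136, 47.8 to 49.7), with an odds ratio of 0.149 (0.138 to 0.161, Fisher exact test p with a log10 of -612), lower on 23 of 24 chromosomes. The share was 23.5% (21.9 to 25.1) in the peaks within 1000 bp of an ARID. The difference was also found on each side of the 1000 bp TSS limit: at promoters 36.5% of far and 67.0% of overlapped peaks were CpG-rich (odds ratio 0.284, 0.257 to 0.314, p = 6.68e-140, Fisher exact test), and over 1000 bp from a TSS 2.60% and 7.14% were (odds ratio 0.348, 0.280 to 0.431, p = 1.36e-22, Fisher exact test). Median GC content of the central 200 bp was 48.5% in far and 59.5% in overlapped peaks. As with promoters, the CpG-rich share can move with the rule, because most ARID peaks are in a promoter state.

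Promoter peaks of the far set also differed in where they sat. A TSS lay inside the peak in 994 of 2167 far promoter peaks (45.9%) and 5866 of 7329 overlapped promoter peaks (80.0%), a measure that moves with width and was not tested. Fewer far than overlapped promoter peaks lay within 1000 bp of the 5′ end of a whole gene. The shares were 68.1% of far (1475 of 2167) and 84.7% of overlapped promoter peaks (odds ratio 0.384, 0.344 to 0.429, p = 5.70e-62, Fisher exact test). This comparison was added after the data were seen. The nearest TSS belonged to a protein-coding gene for 58.8% of far and 71.3% of overlapped peaks, to a long noncoding RNA gene for 22.9% and 19.3%, and to a pseudogene for 10.1% and 4.98%, none of which was tested. Of the 5340 far peaks over 1000 bp from a TSS, 66.8% lay inside a gene and 1772 outside any. Outside any gene lay 1087 of the 3209 overlapped peaks over 1000 bp from a TSS, nearly the same share. The nearest TSS of the 5340 far peaks was within 5 kb for 38.2%, at 5 to 20 kb for 43.2%, at 20 to 100 kb for 17.6% and beyond that for 53 peaks (0.993%).

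Transcription factor motifs in the central 200 bp differed along the same line. Letters for 20 motifs were searched on both strands, and 15 of 20 differed between far and overlapped peaks at an adjusted p of 0.05 or less (75.0% of those tested). Motifs may overlap one another in a window, and a match describes letters, not binding. The 7 that were less frequent in far peaks are those of factors common at CpG island promoters. The SP/KLF letters GGGCGGG were in 6.14% of far and 21.9% of overlapped peaks (odds ratio 0.233, 0.210 to 0.259, adjusted p = 1.26e-201, Fisher exact test), with 14.8% in all SNF5 peaks and 0.910% in 28570 windows tiled over the genome. ETS (CCGGAAG) was in 2.58% and 6.09%, NRF1 (GCGCATGCG) in 0.133% and 1.56%, CRE (TGACGTCA) in 0.173% and 1.01%, YY1 (AAGATGGCG) in 0.280% and 1.02%, the E-box CACGTG in 2.92% and 4.72% and NFY (AGCCAAT) in 2.50% and 3.40%.

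The 8 motifs more frequent in far peaks included those of several liver factors. AP-1 (TGANTCA), bound by JUN and FOS, was in 8.18% of far and 5.14% of overlapped peaks (odds ratio 1.64, 1.46 to 1.85, adjusted p = 1.94e-15, Fisher exact test) and in 6.25% of genome windows. C/EBP (TTNNGCAA) was in 11.1% and 7.77%, with 10.8% of genome windows. The forkhead letters of FOXA, the pioneer factors of liver, were in 4.66% and 3.44% as TGTTTAC and 5.25% and 3.36% as TGTTTGC, with 3.20% and 3.64% of genome windows. The letters AGATAAG of the GATA factors were in 3.0% and 1.66%, TEAD (ACATTCC) in 3.32% and 2.26%, HNF1 (TTAATNATT) in 1.65% and 0.977%, and a nuclear receptor direct repeat (AGGTCAAAG) in 0.453% and 0.256%. The genome windows held GATA at 3.02%, TEAD at 2.79%, HNF1 at 2.34% and the direct repeat at 0.252%. C/EBP and GATA in far peaks were thus near the genome share, and HNF1 was below it. HNF4 (CAAAGTCCA) was in 1.20% of far and 0.930% of overlapped peaks, against 0.228% of genome windows, and did not pass the test between the classes (odds ratio 1.29, 0.969 to 1.72, adjusted p = 0.109, Fisher exact test). CTCF was in 0.346% and 0.285%, and the telomere, satellite and CA repeats also did not pass.

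These differences were also compared within each side of the 1000 bp TSS limit, with fewer peaks in each class. Within 1000 bp of a TSS, between 2167 far and 7329 overlapped peaks, 12 of 20 motifs passed, 6 more and 6 less frequent in far peaks. The odds ratios of the 6 more frequent there were 2.33 for HNF1, 1.78 for TEAD, 1.69 for FOXA as TGTTTGC, 1.68 for GATA, 1.52 for AP-1 and 1.33 for C/EBP (adjusted p between 0.00206 and 0.016, Fisher exact test). Over 1000 bp from a TSS, between 5340 far and 3209 overlapped peaks, 1 of 20 motifs passed: SP/KLF, in 2.15% and 5.05% (odds ratio 0.414, adjusted p = 1.55e-11, Fisher exact test). The CRE letters had nearly the same odds ratio there as over all peaks, 0.180 and 0.171, but from 3 far and 10 overlapped peaks, and did not pass (adjusted p = 0.0674, Fisher exact test). There AP-1 was in 9.44% of far and 9.13% of overlapped peaks (odds ratio 1.04), C/EBP in 12.8% and 13.3% (0.958), FOXA in 5.51% and 6.76% as TGTTTAC (0.803) and in 5.94% and 6.17% as TGTTTGC (0.960), HNF1 in 1.84% and 2.03% (0.904) and TEAD in 3.65% and 4.18% (0.870). The direction of these last 5 was thus opposite to that over all peaks, with no test passed, while AP-1, GATA (1.19) and the direct repeat (1.63) stayed above 1. Within 5 strata of GC content, 6 motifs passed, and all 6 were less frequent in far peaks.

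**Figure D4:**
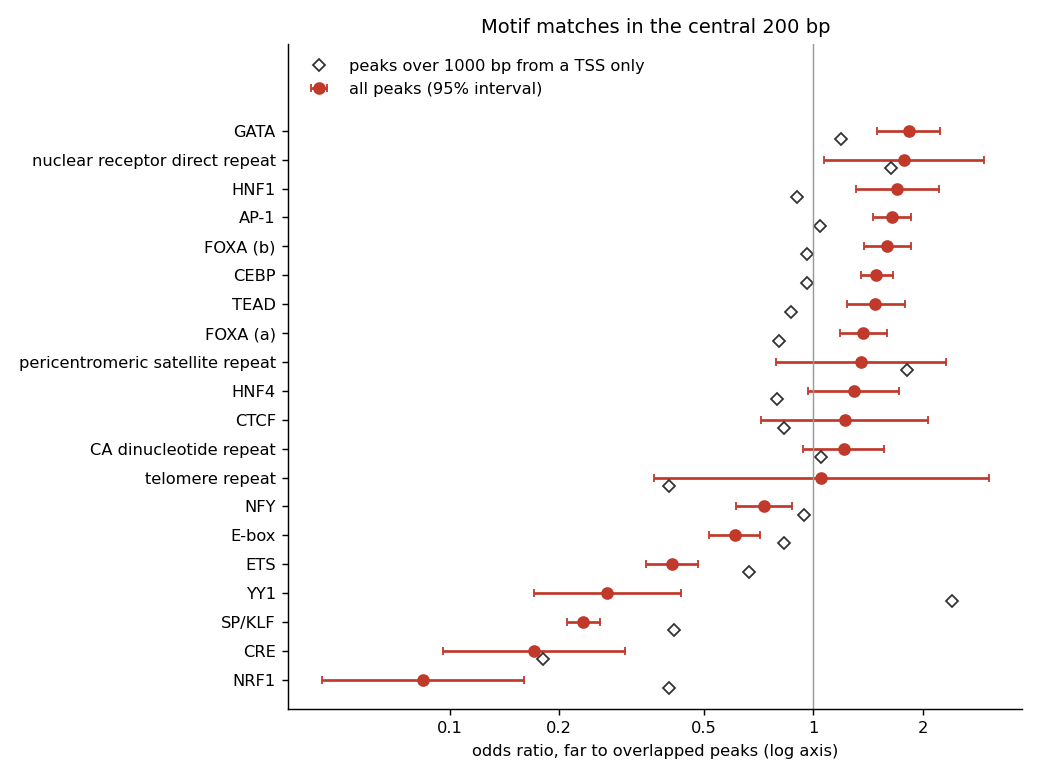
Odds ratio of a motif match in the central 200 bp, far to overlapped SNF5 peaks (log x axis), for 20 motifs. Red circles with 95% intervals are all peaks and open diamonds, without intervals, are peaks over 1000 bp from a TSS. The red circles spread from 0.0844 for NRF1 to 1.83 for GATA, and most diamonds lie closer to 1, SP/KLF at 0.414 being the only one past the threshold.

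The far share of SNF5 peaks was close to 36% on most chromosomes. It differed from the rest of the list on 8 of 24 chromosomes (33.3%) at an adjusted p of 0.05 or less. Chromosome 19, the most gene-dense, had the lowest share, 27.7% (25.1 to 30.6, 284 of 1024, odds ratio 0.663 against the rest, adjusted p = 4.82e-08, Fisher exact test), with 32.6 ARID peaks per Mb. Chromosome X had the highest, 58 of 82 peaks (70.7%, 60.1 to 79.5, odds ratio 4.28, 2.66 to 6.89, adjusted p = 8.98e-09, Fisher exact test), with 0.766 ARID peaks per Mb. The number of ARID peaks on a chromosome moves with the far share by the way the set was chosen. Of the other calls, chromosomes 2 (40.6%), 9 (40.8%) and 21 (47.1%) were above the rest and chromosomes 7 (32.5%), 11 (31.6%) and 17 (32.1%) below. Among peaks over 1000 bp from a TSS, chromosomes 9 (odds ratio 1.51) and 19 (0.607) passed. Chromosome 21 had a larger odds ratio there than over all peaks, 2.06 against 1.57, without passing (adjusted p = 0.103, Fisher exact test), and X had an odds ratio of 2.59 (adjusted p = 0.0564, Fisher exact test). Chromosome 9 did not pass within strata of width (odds ratio 1.07, adjusted p = 0.599) or among peaks with a score of at least 20 (1.14, adjusted p = 0.452, Fisher exact test). Among peaks with a score of at least 20, chromosome 2 lay below the rest (odds ratio 0.777, adjusted p = 0.0146, Fisher exact test).

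Scores of far peaks were lower on 5 chromosomes. On chromosomes 2, 6, 16, 17 and 20 the median score of far peaks was 16, and 45.8 to 48.9% of them had a score of 15 or less. On the other 19 chromosomes the median was 17 to 19 and this share was 20 to 34.5%, so the groups did not overlap. The 5 chromosomes held 2717 far peaks (36.2% of the set) on 21.0% of the sequence of all chromosomes. Their density of far peaks over 1000 bp from a TSS was 3.22 per Mb (2.55 to 4.32) against 1.33 per Mb on the others (0.135 to 2.62), and that of far promoter peaks was 0.971 against 0.628 per Mb. On chromosomes 2, 6, 16, 17 and 20 the far share of SNF5 peaks was 40.6, 36.5, 34.6, 32.1 and 38.4%. The whole list had 36.2%, so SNF5 peaks in general, and not only far ones, were dense there. Overlapped peaks showed no such fall in score, with medians of 22 to 23 on the 5 and 19 to 23 on the others. This grouping was made after the scores were seen and carries no test, and the copy number of the chromosomes in this line was not analysed here.

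**Figure D5:**
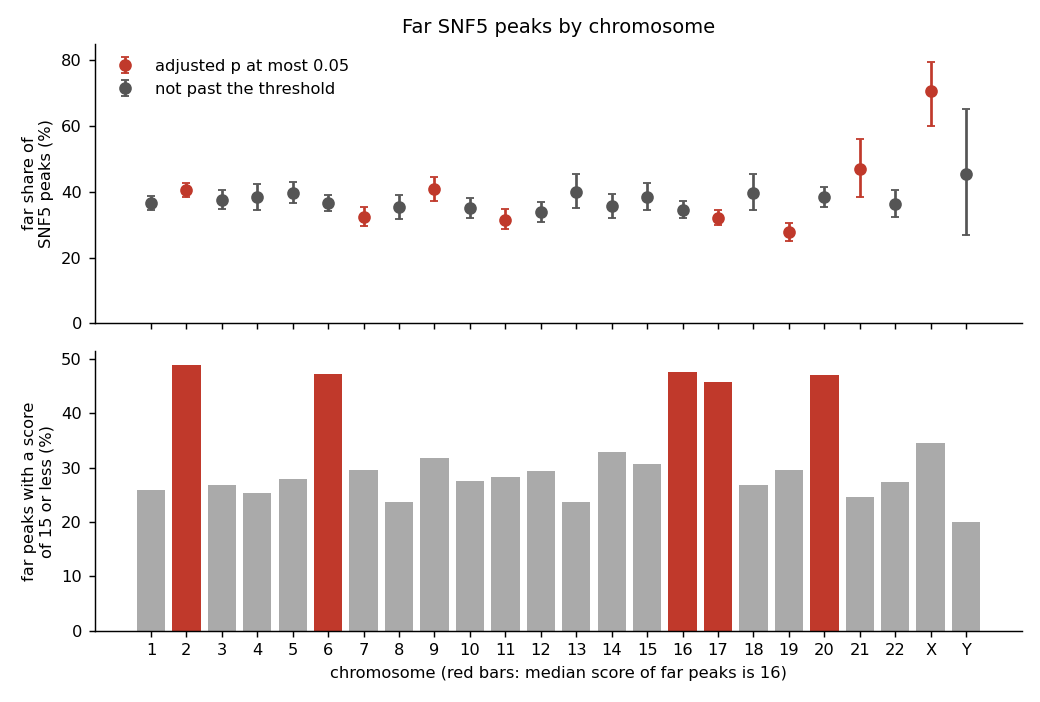
Upper panel, share of SNF5 peaks that are far (y axis, %) by chromosome, with Wilson 95% intervals. Red points are the 8 chromosomes past the threshold, with 19 lowest at 27.7% and X highest at 70.7%. Lower panel, share of far peaks with a score of 15 or less (%), where the red bars of chromosomes 2, 6, 16, 17 and 20 stand at 45.8 to 48.9% and all grey bars at 34.5% or less.

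Far peaks were counted at 8 lists of genes, a gene holding a far peak when one lay in its body or within 5000 bp of it. Of 20163 protein-coding genes, 4273 (21.2%) did, and 1560 of these had no other SNF5 peak. An overlapped peak was within the same reach of 8355 of the 20163 genes, and any SNF5 peak of 10611. Long genes have more room for a peak, so the median gene length is given beside the lists that stand apart. Among 9 hepatocyte marker genes, 8 had an SNF5 peak within reach, the exception being TTR, and 6 had a far one. Because so many genes of any kind had an SNF5 peak, this is only a weak check on the cell line. HNF4A, a master regulator of hepatocyte genes, had 15 SNF5 peaks, 7 of them far, between 158 and 1366 bp wide and with scores of 12 to 17. APOB, the structural protein of very low density lipoprotein, had 8 with 6 far, and ALB, the albumin gene, had 3 with 2 far, at 11044 and 5633 bp from an ARID2 peak. AFP had 6 SNF5 peaks but no far one.

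Hepatocyte transcription factors had an overlapped peak at 19 of 26 genes and any SNF5 peak at 25, so their SNF5 peaks were not particular to the far set. They had a far peak at 12 of 26 genes (46.2%, median length 28.5 kb). High scores were at PPARA (27), a fatty acid sensor, HNF4G (23), and at NR5A2, the xenobiotic sensor NR1I3 and TBX3 (20 each), followed by FOXA2 and ONECUT1 (18 each). HNF4G and ONECUT1 had a far peak over a TSS and no other SNF5 peak, and that of HNF4G was 1425923 bp from the nearest ARID peak. All 3 SNF5 peaks of NR5A2, a regulator of bile acid synthesis, were far as well, with widths of 237, 270 and 305 bp.

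Genes of liver plasma proteins had an overlapped peak at 28 of 45 and any SNF5 peak at 34. They had a far peak at 21 of 45 (46.7%, median length 14.0 kb). The fibrinogen gene FGG had one over its TSS with a score of 27, APOE and its neighbour APOC1 shared a pair with scores of up to 26, and complement C3 had a pair with scores of up to 25. Next were APOH (21) and the clotting genes F5, F10 and KNG1 (19 each). All 3 SNF5 peaks at KNG1, which encodes kininogen, were far. One was near a start of KNG1 and the other two were at starts of the noncoding gene HRG-AS1, and they lay between 37876 and 65834 bp from ARID1A. The 4 genes KNG1, ITIH1, ITIH3 and CFB of this list had far peaks and no other SNF5 peak. Neighbours such as ITIH1 and ITIH3 share the same peaks, so these counts are not independent.

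Lipid and cholesterol genes had an overlapped peak at 20 of 27 and any SNF5 peak at 24. They had a far peak at 10 of 27 (37.0%), each beside other SNF5 peaks. The desaturase gene SCD and the cholesterol exporter ABCA1 each had a short intronic peak, of 143 and 127 bp, with a score of 29. FASN (23), ACACA and FDPS (21 each) and MVK (19) followed. AP-1 and immediate early genes had one at 8 of 22 (36.4%, median length 5.73 kb), with highest scores of 21 at JUNB, 17 at JUND, MAFF and DUSP6, 16 at ATF3, 15 at KLF6 and DUSP1 and 13 at EGR1. Each of these 8 genes also had an overlapped peak, as did 17 of the 22 in all.

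Genes of the SWI/SNF complexes themselves stood near the background, at 8 of 31 (25.8%). They were BICRAL (highest score 26), ACTL6B (23), ACTB (21), SMARCD1 (17), SMARCB1, the gene of SNF5 itself (16), BCL7A (15), and SMARCA4 and BCL7C (14 each). Drug metabolism genes were also near it, at 6 of 27 (22.2%). Of these CYP1A1, which oxidises aromatic hydrocarbons, and UGT2B7, a glucuronidation enzyme, had far peaks only. The CYP1A1 peak was 165 bp with a score of 32, at 107374 bp from ARID1A, and UGT2B7 had 4 peaks with scores of 16 to 24. EPHX1 (23), ALDH1A1 (19), CYP3A7 (17) and ADH4 (15) completed the list. Of genes of other tissues, 3 of 20 blood cell genes had one (15.0%: LCK and RUNX1 at 20 and CD79A at 17), also near the background, and 1 of 22 neuronal genes (4.55%), SCN1A at 26, where the neuronal genes had a median length of 353 kb. No test was made of these lists.

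Most genes had a single far peak. The 7507 far peaks had 5515 nearest genes, of which 4234 had 1, 1224 had 2 to 4 and 57 had 5 or more, the last group holding 347 peaks. FNDC3B, which encodes a membrane protein with fibronectin repeats, had the most, 13, all inside the gene over 130.3 kb, with scores of 13 to 30 and gaps of 1048 to 37524 bp to an ARID peak. It had 13 other SNF5 peaks as well. ZNRF3, a ubiquitin ligase that removes Wnt receptors, had 10 over 113.4 kb, with scores of 17 to 25 and 10 other SNF5 peaks. The noncoding RNA gene LINC00511 also had 10, of which 6 were at starts of its many transcripts. ATXN1 had 9 far peaks against 2 other SNF5 peaks, the smallest number of others among these genes, 8 of the 9 in introns, with all 9 spanning 70.2 kb. NFIA, a transcription factor of the nuclear factor I family, had 8, of which 3 touched exons, with scores of 16 to 32. ARHGAP18, which encodes a GTPase activator, LINC01819 and MIR4435-2HG had 8 each, beside 5, 5 and 3 other SNF5 peaks.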

How the data were processed

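Chromatin of HepG2 cells was fixed lightly, digested with micrococcal nuclease and immunoprecipitated. The authors aligned the reads to hg19 with Bowtie2, removed duplicates, merged the 2 replicates of each antibody with samtools, called broad peaks with MACS2, joined nearby peaks and removed blacklisted regions. The deposited values used here are peak boundaries in bp and, for SNF5, the score that the authors' peak file gives each peak, a whole number whose definition is not given in the sources used here. The annotation columns that the authors added to the ARID lists were used only for the chromatin state of the nearest ARID peak.

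Gaps between peak edges, distances to the transcript starts of Gencode release 44 lifted to GRCh37, and the central 200 bp of each peak from the GRCh37 primary assembly, the same build as hg19, were computed in Python 3.11.15 (numpy 2.4.6, pandas 2.3.3, scipy 1.17.1). No peak ran past a chromosome end. Peaks were called promoter (TSS within 1000 bp), then exon, intron or intergenic. Shares of far and overlapped peaks were compared by two-sided Fisher exact tests with Woolf 95% intervals of the odds ratio and Wilson 95% intervals of the shares. P-values were adjusted by Benjamini-Hochberg over 4 shares, 20 motifs or 24 chromosomes, and the threshold was 0.05. Genome windows were spaced 100000 bp apart. The functions for gaps, classes, tests and motif search were tested on simulated data with known answers. The reference was not soft-masked, so the share of repeats was not computed.

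The set of peaks, the gene lists and the motifs were chosen with earlier results of these data known. Genes named are those nearest to the 10 far peaks of highest score, the 10 widest and the 5 most remote, the 8 genes with the most far peaks, and in each list the genes with a far peak, at most the 8 of highest score, beside the 9 hepatocyte markers. Where a peak lay inside a gene other than the nearest, that gene is named. The 5 sequences and the list members with no other SNF5 peak were named after their values were seen. Some named genes and 1 sequence that these rules select are not reported here.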

Additional observations from a re-analysis of the deposited data

How the results depend on the processing

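Of 181 alternatives over 32 results, 132 kept direction and side of the threshold, 32 lost the call, 11 reversed and 6 moved a count by over 1.5 times. The odds ratios of promoter, intron, intergenic and CpG-rich shares kept their calls in all alternatives run, with promoter at 0.161 to 0.289. The number of far peaks was 2348 among peaks with a score of at least 20, and otherwise 5164 (gap above 5000 bp) to 9530 (without the ARID1A list). Motifs past the threshold fell from 15 to 1 over 1000 bp from a TSS, to 12 within 1000 bp of one and to 6 within strata of GC content, and chromosomes from 8 to 2 over 1000 bp from a TSS. Of 220 listed genes, those with a far peak went from 69 to 118 within 50000 bp and to 37 with a gap above 5000 bp. A longer reach takes in more peaks for genes of any kind. The share of all protein-coding genes is not given at these settings. Odds ratios that reversed over 1000 bp from a TSS were FOXA 0.803 (TGTTTAC) and 0.960 (TGTTTGC), HNF1 0.904, C/EBP 0.958, TEAD 0.870 and YY1 2.40, the last from 4 far and 1 overlapped peaks. Within GC strata those of FOXA as TGTTTAC (0.854), HNF1 (0.942) and C/EBP (0.924) reversed. With a score of at least 20, chromosomes 2 (0.777) and 11 (1.03) reversed. The cause was not tested in any case. The alternatives with a score minimum for chromosomes, those at promoters only and the comparison of gene starts were added after the data were seen. No paired analysis was possible because the lists were called on merged replicates, and for the same reason no replicate could be left out. Alternatives for the share of repeats were not run, because the reference was not soft-masked. Depth limits which weak ARID peaks were called, so a far peak is one without a called ARID peak nearby.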

Other observations

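Another SNF5 peak lay within 10 kb of 55.7% of far peaks (54.6 to 56.8) and 57.9% of overlapped peaks, and for 46.8% of those far peaks the nearest such neighbour was far as well. Within 1 kb the shares were 13.5% and 25.0%. Of the 5340 far peaks over 1000 bp from a TSS, 2639 (49.4%, 48.1 to 50.8) were nearest to a gene with an ARID peak within 1000 bp of one of its own TSSs. Of the 2838 of these far peaks whose nearest gene was protein-coding, 2111 (74.4%, 72.7 to 76.0) were, against 44.7% of all 20163 protein-coding genes. These are counts of peaks and of genes, so they were set side by side with no test. A gene nearest to several far peaks counts several times, and the gene total includes genes whatever their expression. The share for overlapped peaks is not given, so the value cannot be called particular to far peaks.

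The nearest ARID peak of a far SNF5 peak was, by the chromatin state in the deposited ARID lists, in a promoter state for 59.5% (58.4 to 60.6) and in an enhancer state for 34.1% (33.0 to 35.2), where all 34575 ARID peaks had 65.5% and 29.1%. Assembly gaps lay within 100 kb of 2.10% of far and 1.96% of overlapped peaks. Letters of the pericentromeric satellite repeat were in 0.346% of far centres and those of the telomere repeat in 6 of 7507, against 0.371% and 0.175% of the windows tiled over the genome.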
